A study of Mus musculus with 4 samples.

Results

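The transcripts described here are 8 components and regulators of complement, C1ra, C2, C4b, C4a, C3, Cfb, C7 and Serping1. They were chosen by their gene symbols, with earlier results of these data known, and all 8 were found among the 23284 symbols measured. Complement is a cascade of proteins that marks microbes and damaged cells, recruits leukocytes and can perforate membranes. In the classical pathway the proteases C1r and C1s, carried by C1q, cut C4 and C2 to build an enzyme that cleaves C3. In the alternative pathway factor B, the product of Cfb, takes the place of C2. Cleaved C3 leads on to C5 and to the membrane attack complex, of which C7 is a part, and the inhibitor made from Serping1 holds C1r and C1s in check. The liver makes most complement of the blood, but fibroblasts and macrophages of the gut make components as well.

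The messenger RNA came from mouse colon stroma, living cells that carry podoplanin and were sorted free of cells that carry CD45, CD31 or EpCAM. The 4 groups were C57BL/6J mice labelled IL-10 KO, wild-type C57BL/6J mice, BALB/c mice labelled Rag2 KO and wild-type BALB/c mice. IL-10 is a cytokine that restrains inflammation, and without Rag2 no T or B cell matures. Each group holds 1 library, so no value has a replicate error and no test between groups was possible, and the labels used here give no sex, age or number of animals. Levels are FPKM, fragments scaled by transcript length and by the mapped fragments of the library, as the authors deposited them. FPKM is scaled by length, and levels of different genes are set beside each other below. Such ranks, shares and ratios are rough, since some genes were listed far too low, as shown next for Gapdh. A log2 ratio is the difference between the log2 of FPKM plus 1 of a pair of libraries, and "higher" or "lower" in a count means at least 2-fold apart on that scale.

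The libraries were similar in depth. Steps between the lowest FPKM values put it at about 8273000 fragments in the IL-10 KO library, 8754000 in C57BL/6J wild type, 9595000 in the Rag2 KO library and 9985000 in BALB/c wild type, a range of 1.21-fold. Il10 had 129.9 FPKM in the library labelled IL-10 KO, against 3.33 in C57BL/6J wild type. Rag2 had 0.712 FPKM in the library labelled Rag2 KO and 0 FPKM in the BALB/c wild-type library. Both targeted genes were thus higher, not lower, in the library labelled as their knockout. One value per gene does not show whether its deleted part was present, so the labels could not be checked this way, and "IL-10 KO" and "Rag2 KO" below name libraries by their labels, in every direction given. The 10 fibroblast markers summed to 12020 FPKM in the IL-10 KO library and 12289 in C57BL/6J wild type. Their sums were 10988 FPKM in the Rag2 KO library and 11198 in BALB/c wild type. None of the 10 was at least 2-fold apart in any comparison. Dcn alone had 6520 FPKM in the IL-10 KO library and 5738 in C57BL/6J wild type. The median log2 ratio of the 10 was -0.30 for IL-10, -0.08 for Rag2 and -0.02 between the wild types. Hepatocyte markers were near 0, with 1.95 to 3.34 FPKM for all 8 together. Rows of small RNA genes held 8.80% of the FPKM sum of the IL-10 KO library and 14.8% of that of C57BL/6J wild type, and 9.18% in the Rag2 KO library and 13.8% in BALB/c wild type. Gapdh, a gene that every cell uses, was listed at only 0.196 to 0.349 FPKM, and Ppia, another such gene, at 0 to 0.433 FPKM. A gene listed at or near 0 in these files therefore need not be silent, and levels of different genes may not be comparable.

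Stretches of sequence show how the members relate to their genes and near-copies. Of the 8 members, 3 had an entry in the RefSeq promoter table (build GRCm38.p6). The 250 bases before the annotated start are printed for these 3, since Cfb, C2, C4a, C4b and Serping1 had no entry. C3 and C7 were among the members that stood furthest apart in one or both knockout comparisons. C1ra stood apart by a similar amount in both. Capitals mark matches to the searched motifs on either strand: TATA box (TATAAA), GAS (TTCNNNGAA), ISRE (GAAA, any 2 bases, GAAA), NF-kappaB (GGG, any 5 bases, CC) and C/EBP (TTNNGNAAT). The promoters are those of C3 (chr17:57228137-57228386, minus strand), C7 (chr15:5063774-5064023, minus strand) and C1ra (chr6:124512371-124512620, plus strand).
C3: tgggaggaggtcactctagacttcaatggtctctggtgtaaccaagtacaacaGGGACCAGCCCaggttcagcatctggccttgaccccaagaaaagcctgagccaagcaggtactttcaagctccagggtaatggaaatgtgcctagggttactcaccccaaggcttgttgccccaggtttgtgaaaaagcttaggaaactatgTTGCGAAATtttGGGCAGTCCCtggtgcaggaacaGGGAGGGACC
C7: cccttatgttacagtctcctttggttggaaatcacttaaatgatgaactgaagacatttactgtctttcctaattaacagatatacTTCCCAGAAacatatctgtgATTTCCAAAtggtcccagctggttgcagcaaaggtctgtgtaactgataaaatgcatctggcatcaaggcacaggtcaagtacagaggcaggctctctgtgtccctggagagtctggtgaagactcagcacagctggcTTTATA
C1ra: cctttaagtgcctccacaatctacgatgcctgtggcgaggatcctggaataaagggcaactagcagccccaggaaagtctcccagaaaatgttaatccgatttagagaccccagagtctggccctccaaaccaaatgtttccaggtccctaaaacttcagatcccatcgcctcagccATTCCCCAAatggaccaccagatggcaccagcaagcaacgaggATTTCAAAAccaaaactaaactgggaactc
The C3 window held 1 C/EBP match, TTGCGAAAT, starting 45 bases before the transcript start, and 4 NF-kappaB matches, of which a pair overlapped as a match on each strand. In the C7 window a GAS match, TTCCCAGAA, began at base -164, and C/EBP and TATA box matches on the reverse strand began at -144 and -6. The C1ra window held 2 C/EBP matches on the reverse strand. The ISRE letters were in none of the 3 windows, and the NF-kappaB letters were in that of C3 alone. Of 32536 promoters of the table, 46.0% held the NF-kappaB pattern in the same 250 bases, 10.2% the C/EBP pattern, 12.3% the TATA box, 7.04% the GAS pattern and 2.98% the ISRE pattern. These matches are letters only and say nothing on whether a factor binds there.

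C4a lies close to C4b and is nearly a copy of it. C4b encodes the C4 of the classical pathway, and C4a encodes the sex-limited protein of mice, a C4 copy that the classical pathway does not use. Their longest protein-coding GENCODE transcripts (release M21) were 96.2% identical over 5366 aligned bases. Of the 50-base windows of the C4a transcript, 35.2% occur unchanged in C4b, and of the 100-base windows 16.5% do, so some reads cannot be told apart. The gap-free stretch of 120 bases with the most differences spans bases 2695 to 2814 of C4a and 2701 to 2820 of C4b, printed with the 19 differing bases in capitals.
C4a: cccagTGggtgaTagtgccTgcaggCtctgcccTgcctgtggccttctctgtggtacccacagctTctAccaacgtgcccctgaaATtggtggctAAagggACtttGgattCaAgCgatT
C4b: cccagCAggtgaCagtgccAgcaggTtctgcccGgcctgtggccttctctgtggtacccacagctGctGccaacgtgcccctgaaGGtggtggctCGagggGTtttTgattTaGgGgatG
C1ra has a near-copy too, C1rb, which lies on the same chromosome and is 98.1% identical to it over 2428 aligned bases. Of its 50-base windows 59.2% occur unchanged in C1ra. The most different 120 bases, 1921 to 2040 of C1rb and 2155 to 2274 of C1ra, differ at 13 positions.
C1rb: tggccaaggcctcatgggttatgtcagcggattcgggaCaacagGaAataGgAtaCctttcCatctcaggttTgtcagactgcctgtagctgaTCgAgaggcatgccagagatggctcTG
C1ra: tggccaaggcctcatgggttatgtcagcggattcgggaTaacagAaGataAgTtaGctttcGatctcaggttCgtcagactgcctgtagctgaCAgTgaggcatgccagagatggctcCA
The values of C4a, C4b, C1ra and C1rb are therefore uncertain to the extent that the authors' counting divided shared reads, and the files do not show how it did.

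The first comparison sets the IL-10 KO library beside C57BL/6J wild type within that strain. Of the 8 transcripts 6 were at least 2-fold higher and 0 lower. The 6 include C4a, which passed the filter through the knockout library alone. Of the 12790 genes that reached an FPKM of 1 in one of these libraries, 10.1% were higher and 3.82% lower, together 14% in either direction. Members and lists were chosen with earlier results known, so their counts beside shares of all genes, here and below, are description only. Cfb and C3, the core of the alternative pathway, stood furthest apart, with log2 ratios of 3.81 and 3.12. C7 and Serping1 were higher by less than 2-fold. The median log2 ratio of the members was 1.94, against -0.002 over all genes tested. In libraries of whole sorted populations, fewer cells of a type and less RNA per cell cannot be told apart.

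C3, the protein that both pathways cleave, had 6299 FPKM in the IL-10 KO library, against 723 FPKM in C57BL/6J wild type. It ranked 4 among all symbols in the IL-10 KO library and 82 in C57BL/6J wild type. C3 alone held 1.30% of the FPKM sum of the IL-10 KO library and 0.153% of that of C57BL/6J wild type. Cfb, whose product joins C3 in the alternative pathway enzyme, had 493 FPKM in the IL-10 KO library and 34.3 FPKM in C57BL/6J wild type, a 14.4-fold ratio of FPKM with nothing added. Cfb thus lay close to C1ra in the IL-10 KO library and well below it in C57BL/6J wild type.

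Transcripts of the classical pathway were also higher. C4b had 1356 FPKM in the IL-10 KO library, against 318 FPKM in C57BL/6J wild type (log2 ratio 2.09). C2, the protease subunit of the classical C3-cleaving enzyme, had 81.7 FPKM in the IL-10 KO library, against 17.3 FPKM in C57BL/6J wild type (2.17). C1ra, which encodes the protease C1r, had 547 FPKM in the IL-10 KO library, against 170.0 FPKM in C57BL/6J wild type (1.68). C4b and C2 thus had nearly the same ratio, and C1ra a smaller one.

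The terminal component and the inhibitor stood closer together. C7, which anchors the growing attack complex in a membrane, had 44.5 FPKM in the IL-10 KO library, against 23.0 FPKM in C57BL/6J wild type (0.92). Serping1, the inhibitor of C1r and C1s, had 2392 FPKM in the IL-10 KO library, against 1343 FPKM in C57BL/6J wild type (0.83). C3 was the most abundant member in the IL-10 KO library, with 56.2% of the summed FPKM of the 8, and Serping1 in C57BL/6J wild type, with 51.1%. C4a had 3.30 FPKM in the IL-10 KO library, about 141 fragments, against 0.244 FPKM or about 11 fragments in C57BL/6J wild type (1.79). With nothing added to the FPKM its log2 ratio was 3.76, with a 95% interval of 2.88 to 4.80 for counting error only, and it passed the filter through the knockout library alone. With a pseudocount of 5 its log2 ratio was 0.66, short of 2-fold.

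**Figure D1:**
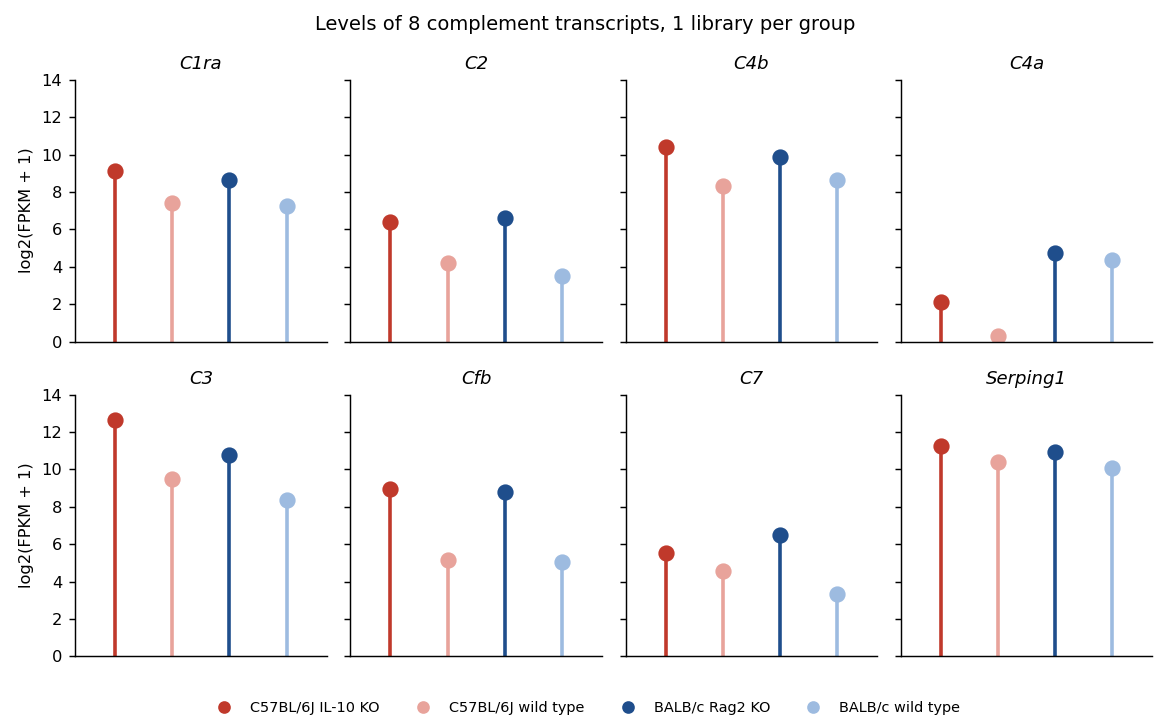
Log2 of FPKM plus 1 (vertical axis, from 0) of the 8 transcripts in the 4 libraries, with 1 point per library. The knockout library of each strain lies above its wild type in all 8 panels, C3 is highest in the IL-10 KO library at 6299 FPKM, and C4a is lowest in C57BL/6J wild type at 0.244 FPKM.

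The second comparison sets the Rag2 KO library beside BALB/c wild type. Again 6 of the 8 transcripts were at least 2-fold higher and 0 lower, where 4.42% of 12336 genes were higher, 2.03% lower and 6.45% either. Cfb, C7 and C2 stood furthest apart, with log2 ratios of 3.73, 3.14 and 3.09. C4a and Serping1 were within 2-fold, although Serping1 reached a log2 ratio of 1.18 after centring on ribosomal protein genes. The median log2 ratio of the members was 1.89, against -0.004 over all genes tested. The split of the background calls depended on the scaling: 545 genes were higher and 251 lower as deposited, 459 and 339 after the small RNA rows were left out of the library sum, and 976 and 107 after centring on ribosomal protein genes.

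Cfb had 439.8 FPKM in the Rag2 KO library, against 32.3 FPKM in BALB/c wild type, a 13.6-fold ratio of FPKM. Its neighbour C2 had 96.9 FPKM in the Rag2 KO library, against 10.5 FPKM in BALB/c wild type, a 9.20-fold ratio. C7 had 88.9 FPKM in the Rag2 KO library, against 9.22 FPKM in BALB/c wild type, a 9.65-fold ratio. Among all symbols C7 ranked 745 in the Rag2 KO library and 6070 in BALB/c wild type, and C2 ranked 676 in the Rag2 KO library and 5577 in BALB/c wild type.

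C3 had 1764 FPKM in the Rag2 KO library, against 328 FPKM in BALB/c wild type (2.42). C1ra had 394 FPKM in the Rag2 KO library, against 153 FPKM in BALB/c wild type (1.36). C4b had 926 FPKM in the Rag2 KO library, against 399 FPKM in BALB/c wild type (1.21). Serping1 remained the most abundant member of both BALB/c libraries, at 1933 FPKM in the Rag2 KO library and 1059 FPKM in BALB/c wild type (0.87). The sex-limited C4 copy C4a had 25.7 FPKM in the Rag2 KO library, against 19.5 FPKM in BALB/c wild type (0.38). C4a thus stood apart by less than any other member in this comparison.

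**Figure D2:**
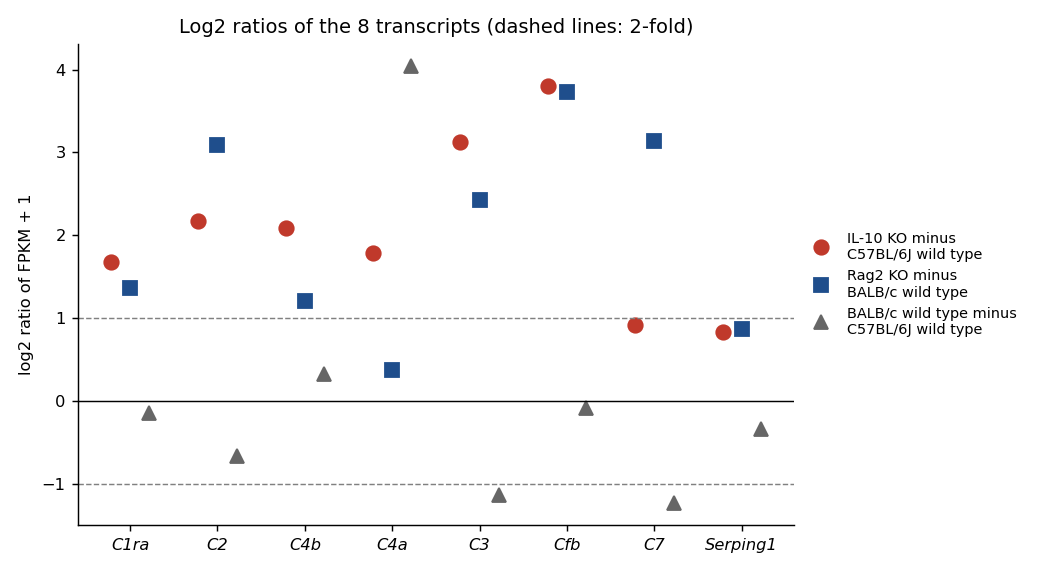
Log2 ratios of FPKM plus 1 (vertical axis) of the 8 transcripts for the IL-10 KO library minus C57BL/6J wild type (circles), the Rag2 KO library minus BALB/c wild type (squares) and BALB/c wild type minus C57BL/6J wild type (triangles), with dashed lines at 2-fold. Cfb has nearly the same ratio in both knockout comparisons (3.81 and 3.73), while C7 stands at 0.92 and 3.14.

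Both knockout comparisons were set side by side through the difference of their log2 ratios, which share no library. At least 2-fold higher in both were 5 members, C1ra, C2, C4b, C3 and Cfb, where 3.04% of 13078 genes were. Cfb (difference 0.08) and Serping1 (-0.04) had nearly equal ratios in both. C7 had a log2 ratio that was 2.22 greater in the Rag2 comparison, and C4a one that was 1.41 greater in the IL-10 comparison. With a pseudocount of 5 the difference of C4a was 0.34, and with a filter at an FPKM of 5 it had no IL-10 ratio. Of all genes, 2.58% had a ratio at least 1 greater in the Rag2 comparison and 7.28% in the IL-10 comparison, together 9.86%. The ratio of C4b was 0.87 greater and that of C3 0.70 greater in the IL-10 comparison, and that of C2 was 0.91 greater in the Rag2 comparison, or 1.15 greater after centring on ribosomal protein genes. None of these differences could be tested, and strain and knockout cannot be told apart in them. Levels of Xist and the Y-linked Ddx3y, given below, were unequal between the libraries too, also within the C57BL/6J pair. Their part in every comparison of the members was not tested.

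Between the wild types, 1 of the 8 transcripts was at least 2-fold higher in BALB/c than in C57BL/6J and 2 were lower, where 1.81% of 12290 genes were higher, 2.17% lower and 3.99% either. C4a was the higher one, with 19.5 FPKM in BALB/c wild type, against 0.244 FPKM in C57BL/6J wild type, a log2 ratio of 4.04. That ratio ran from 2.23 to 5.83 over the settings tried and was 6.32 with nothing added (95% counting interval 5.48 to 7.34), and C4a passed the filter here through BALB/c alone, against about 11 fragments in C57BL/6J wild type. The lower ones were C7, at 9.22 FPKM in BALB/c wild type, against 23.0 FPKM in C57BL/6J wild type (-1.23), and C3, at 328 FPKM in BALB/c wild type, against 723 FPKM in C57BL/6J wild type (-1.14). C2 (-0.67), Serping1 (-0.34), C1ra (-0.15), Cfb (-0.08) and C4b (0.33) were within 2-fold. With a pseudocount of 5 the ratio of C7 was -0.98, short of 2-fold. This comparison shares a library with each knockout comparison.

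Both BALB/c libraries lay above both C57BL/6J libraries in C4a. It made up 0.243% of the summed C4a and C4b FPKM in the IL-10 KO library and 0.0766% in C57BL/6J wild type, against 2.70% in the Rag2 KO library and 4.66% in BALB/c wild type. RefSeq annotates C4a of C57BL/6J, the strain of the genome build, as a transcribed pseudogene. Expression of the sex-limited protein depends on androgen in some mouse strains, and levels of transcripts from the sex chromosomes were unequal here. Xist had 44.9 FPKM in the IL-10 KO library, 23.0 in C57BL/6J wild type, 0.105 in the Rag2 KO library and 0.0509 in BALB/c wild type, while the Y-linked Ddx3y had 0.0269 FPKM in the IL-10 KO library, 16.9 in C57BL/6J wild type, 31.5 in the Rag2 KO library and 36.3 in BALB/c wild type. Both transcripts were thus present in C57BL/6J wild type. Their part in the C4a values, and in those of the other members, was not tested.

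The near-copies of the C1 proteases showed the same order of strains. C1rb had 5.84 FPKM in the IL-10 KO library and 0.642 FPKM in C57BL/6J wild type, while the Rag2 KO library had 28.9 FPKM and BALB/c wild type had 10.5 FPKM. C1s2, listed under its older symbol, had 5.58 FPKM in the IL-10 KO library and 1.16 FPKM in C57BL/6J wild type, while the Rag2 KO library had 95.6 FPKM and BALB/c wild type had 35.5 FPKM. Their partners did not split by strain: C1ra was described above, and C1s1 had 1259 FPKM in the IL-10 KO library, 583 in C57BL/6J wild type, 1010.2 in the Rag2 KO library and 365 in BALB/c wild type. Among the 8904 genes searched, C1rb had the pattern over the 4 libraries most like that of C4a. The root mean square difference of their centred log2 values was 0.57. The search left out provisional row names, among them that of C1s2, so C1s2 was not compared with C4a. The submitters' processing notes name mm10, a C57BL/6J genome, and the part of shared reads or strain variants in these values was not tested.

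**Figure D3:**
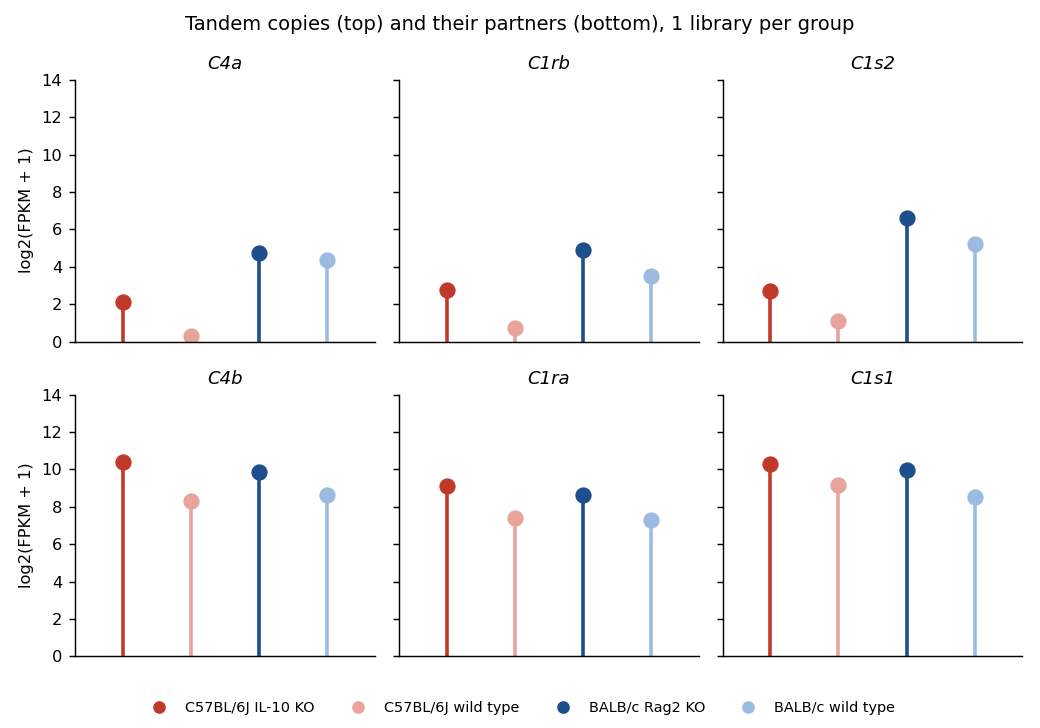
Log2 of FPKM plus 1 (vertical axis) of C4a, C1rb and C1s2 in the top row and of their near-identical partners C4b, C1ra and C1s1 in the bottom row, with 1 point per library. The copies of the top row are higher in both BALB/c libraries than in both C57BL/6J libraries, and the partners are higher in each knockout library than in both wild types.

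C2, Cfb, C4a and C4b lie together on chromosome 17, in the class III part of the major histocompatibility complex, between 34728139 and 34882100 (GRCm38). Their neighbours within 150 kb on either side gave a local comparison. Of 30 neighbouring genes in the files, 23 had an FPKM of at least 1 in the IL-10 comparison, of which 1 was past 2-fold, upwards, and the median was 0.08 on the log2 scale. In the Rag2 comparison 25 passed and 0 were at least 2-fold apart, with a median of 0.17. Nelfe, the gene next to Cfb, had 15.5 FPKM in the IL-10 KO library and 13.1 FPKM in C57BL/6J wild type, while the Rag2 KO library had 12.9 FPKM and BALB/c wild type had 11.9 FPKM. Tnxb, a matrix gene next to C4b, had 275 FPKM in the IL-10 KO library and 259 FPKM in C57BL/6J wild type, while the Rag2 KO library had 249.98 FPKM and BALB/c wild type had 209 FPKM. The exception was Slc44a4, a solute carrier gene, at 5.01 FPKM in the IL-10 KO library and 0.588 FPKM in C57BL/6J wild type. In the Rag2 KO library Slc44a4 had 1.30 FPKM, against 0.188 FPKM in BALB/c wild type, a log2 ratio of 0.96, just short of 2-fold. It passed the filter through the knockout library alone in both pairs. C3 lies elsewhere on the same chromosome (57203967 to 57228136), C7 on chromosome 15 (4987750 to 5063773), C1ra on chromosome 6 (124512621 to 124523440) and Serping1 on chromosome 2 (84765360 to 84775444).

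**Figure D4:**
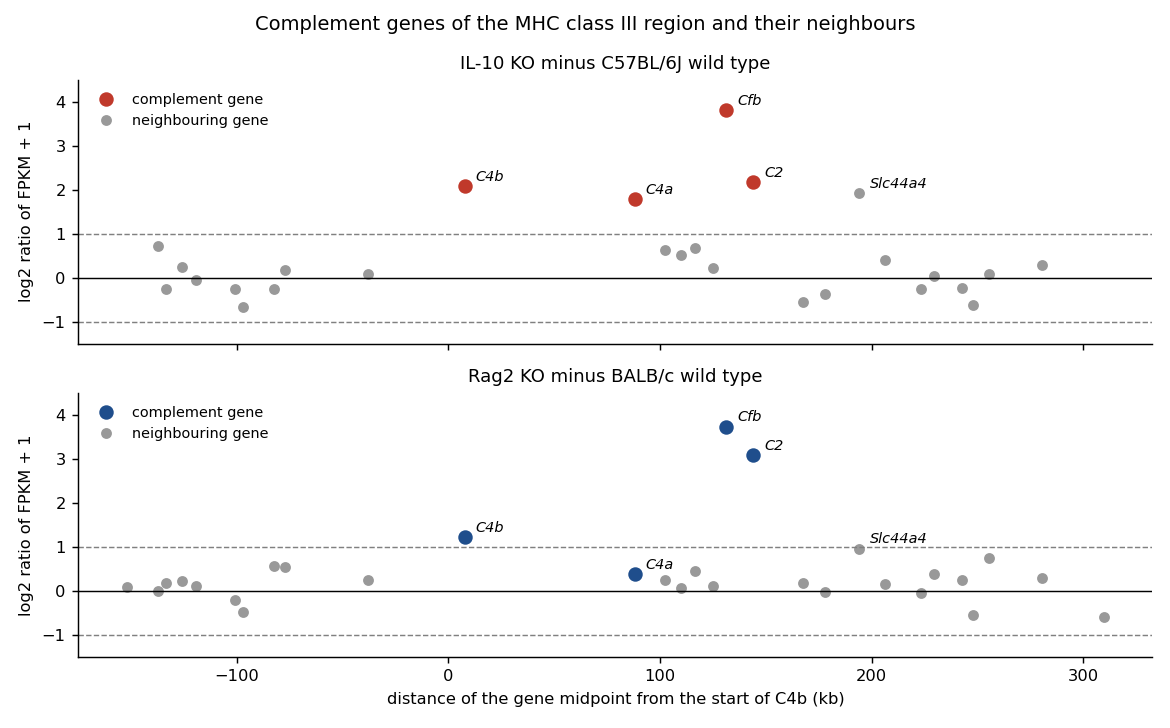
Log2 ratio of FPKM plus 1 (vertical axis) against the distance of each gene's midpoint from the start of C4b in kb (horizontal axis), for the IL-10 comparison (top) and the Rag2 comparison (bottom), with dashed lines at 2-fold. The coloured points of C4b, Cfb and C2 stand above 2-fold in both panels, and of the grey neighbours only Slc44a4 does, in the top panel.

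Other genes of the cascade were taken from a list of 49 by role, of which 48 were in the files. An FPKM of at least 1 in some library was reached by 29 of them, and 9 were listed at 0 in all 4 libraries, among them C8a, C8b and C9 of the attack complex and the lectins Mbl1 and Mbl2. In the IL-10 KO library 18 of 27 that passed the filter were at least 2-fold higher than in C57BL/6J wild type and 0 were lower, and the median was 1.46. Of the 18, C1rb, Fcnb, Cr2, Itgam and Itgax were under an FPKM of 1 in C57BL/6J wild type and passed through the knockout library alone. The 18 became 13 with a pseudocount of 5 and 15 after the small RNA rows were left out. In the Rag2 KO library 7 of 26 were higher and 1 lower than in BALB/c wild type, with a median of 0.36. C6, among the 7, likewise passed through the Rag2 KO library alone. With a pseudocount of 5 the Rag2 counts were 3 higher and 0 lower. The shares of all genes that were higher, given above, were 10.1% and 4.42%. Between the wild types 3 of 26 were higher in BALB/c and 0 lower, namely C1rb, C1s2 and C1qa, the last with a log2 ratio of 1.01, which was 0.87 with a pseudocount of 5. With a pseudocount of 0.1 the count between the wild types was 10.

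Among initiators, C1s1, the substrate and partner of C1r, had a log2 ratio of 1.11 for IL-10 and of 1.46 for Rag2, and of 0.97 for IL-10 after the small RNA rows were left out. The C1q chains, which macrophages make, differed more in the IL-10 comparison: C1qa had 99.7 FPKM in the IL-10 KO library and 18.2 FPKM in C57BL/6J wild type, while the Rag2 KO library had 61.3 FPKM and BALB/c wild type had 37.5 FPKM. Masp1, a protease of the lectin pathway, had 30.5 FPKM in the IL-10 KO library and 8.13 FPKM in C57BL/6J wild type, while the Rag2 KO library had 10.9 FPKM and BALB/c wild type had 7.84 FPKM. Cfp, which encodes properdin, a stabiliser of the alternative pathway enzyme, had 26.2 FPKM in the IL-10 KO library and 6.26 FPKM in C57BL/6J wild type, while the Rag2 KO library had 9.40 FPKM and BALB/c wild type had 8.99 FPKM. Of the other attack complex genes, C6 alone reached an FPKM of 1, at 1.76 FPKM in the IL-10 KO library, 0.912 in C57BL/6J wild type, 1.49 in the Rag2 KO library and 0.228 in BALB/c wild type.

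Cd55, a membrane protein that dissociates the C3-cleaving enzymes, had 300.2 FPKM in the IL-10 KO library and 136 FPKM in C57BL/6J wild type (1.14), whereas the Rag2 KO library had 166 FPKM and BALB/c wild type had 154 FPKM (0.10). The IL-10 ratio of Cd55 was just short of 2-fold after the small RNA rows were left out. Clu and Vtn, soluble inhibitors of the attack complex, had log2 ratios of 1.68 (Clu) and 2.18 (Vtn) for IL-10 and of 0.34 (Clu) and -0.14 (Vtn) for Rag2. Cd59a, a membrane inhibitor of the attack complex, was the 1 gene of the list that was lower in the Rag2 KO library, at 2.16 FPKM against 5.82 FPKM in BALB/c wild type (-1.11). Its ratio was -0.60 with a pseudocount of 5 and -0.80 after centring on ribosomal protein genes, both short of 2-fold. Cr1l, which encodes the mouse membrane regulator Crry, was within 2-fold in all 3 comparisons. Among receptors the integrin genes Itgam, Itgax and Itgb2, which leukocytes use to bind cleaved C3, were all past 2-fold, with log2 ratios of 2.86 to 3.60 for IL-10 and of 1.05 to 1.54 for Rag2. With a pseudocount of 5 their Rag2 ratios were 0.89 (Itgam), 0.62 (Itgax) and 0.77 (Itgb2), short of 2-fold, and that of Itgb2 was 0.93 without the small RNA rows. Itgb2 is also among the pan-leukocyte markers. C5ar1, a receptor of the C5 fragment on myeloid cells, had 12.1 FPKM in the IL-10 KO library and 1.72 FPKM in C57BL/6J wild type, while the Rag2 KO library had 5.58 FPKM and BALB/c wild type had 4.08 FPKM.

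**Figure D5:**
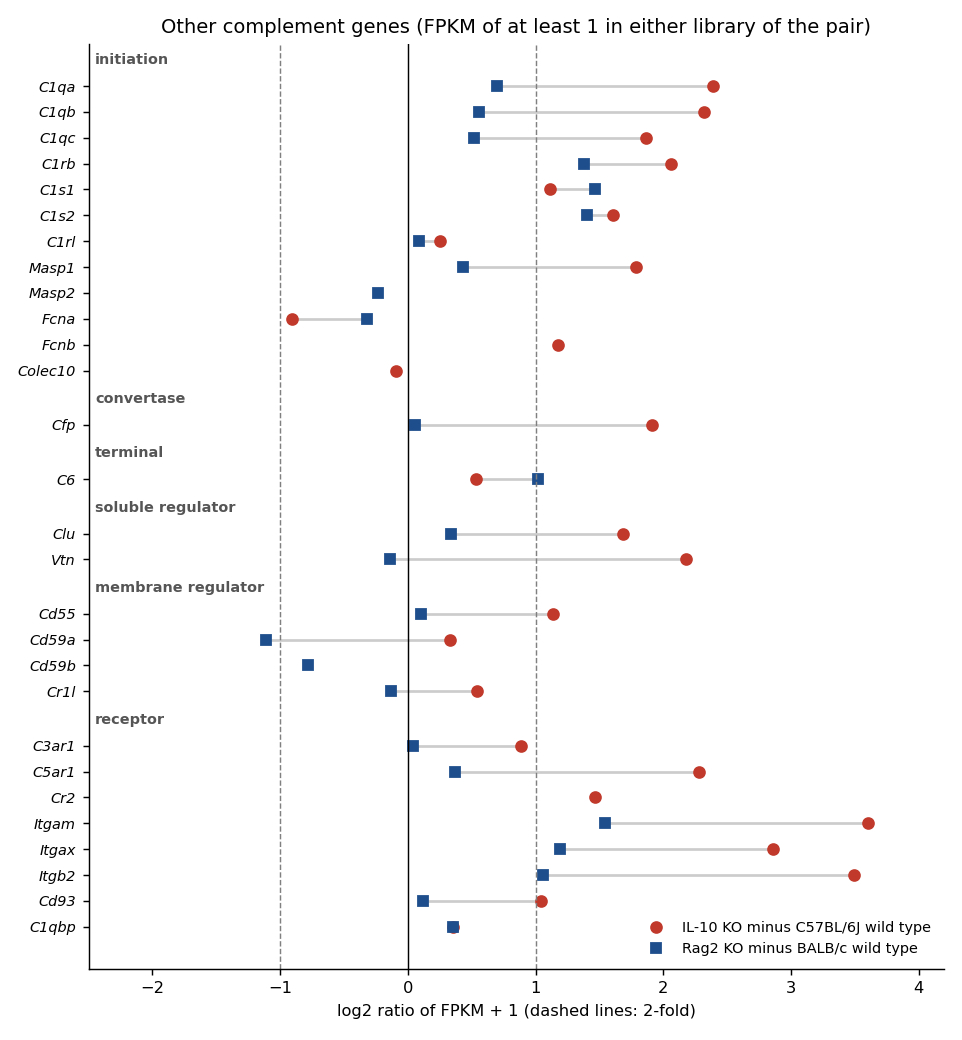
Log2 ratio of FPKM plus 1 (horizontal axis) of the other complement genes, grouped by role, for the IL-10 KO library minus C57BL/6J wild type (circles) and the Rag2 KO library minus BALB/c wild type (squares). A point is drawn where either library of the pair has an FPKM of at least 1, for the genes shown; Cfp, Vtn and C5ar1 are past 2-fold in the IL-10 comparison and within it in the Rag2 comparison.

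Markers of other cells differed along with the complement transcripts. The 8 pan-leukocyte markers summed to 957 FPKM in the IL-10 KO library and 87.2 FPKM in C57BL/6J wild type, with 8 of 8 at least 2-fold higher, and to 302 FPKM in the Rag2 KO library and 159 FPKM in BALB/c wild type, with 3 of 8 higher. For the 10 macrophage markers the sums were 952 FPKM in the IL-10 KO library and 122 FPKM in C57BL/6J wild type (7 of 10 higher), and 501 FPKM in the Rag2 KO library and 221 FPKM in BALB/c wild type (4 of 10 higher). Epithelial markers summed to 209 FPKM in the IL-10 KO library and 61.9 FPKM in C57BL/6J wild type, while the sum was 103 FPKM in the Rag2 KO library and 21.1 FPKM in BALB/c wild type, with 8 of 8 higher in both. Neutrophil markers summed to 3834 FPKM in the IL-10 KO library and 9.42 FPKM in C57BL/6J wild type (6 of 6 higher), and to 242 FPKM in the Rag2 KO library and 23.4 FPKM in BALB/c wild type (5 of 5 that passed the filter). B cell markers summed to 84.4 FPKM in the IL-10 KO library and 11.1 FPKM in C57BL/6J wild type (5 of 5 higher), but to 1.17 FPKM in the Rag2 KO library and 32.8 FPKM in BALB/c wild type (5 of 5 lower). T cell markers likewise summed to 76.4 FPKM in the IL-10 KO library and 5.75 FPKM in C57BL/6J wild type (5 of 5 that passed higher), but to 3.36 FPKM in the Rag2 KO library and 12.4 FPKM in BALB/c wild type (2 of 5 lower). Mesothelial markers summed to 5.27 FPKM or less in each library, and the 1 that passed the filter, Wt1, was higher in the IL-10 KO library than in C57BL/6J wild type (log2 ratio 1.82). The 6 endothelial markers summed to between 43.9 and 59.5 FPKM, with 0 of 6 apart in any comparison. Between the wild types 3 of 8 pan-leukocyte, 1 of 9 macrophage, 2 of 3 neutrophil and 4 of 5 B cell markers that passed the filter were higher in BALB/c, and 4 of 8 epithelial markers were lower. Listed at 0 were Cxcr2 in both wild types, Ngp in C57BL/6J wild type, Cd3g and Pou2af1 in the Rag2 KO library, and Msln and Lrrn4 in BALB/c wild type, and of the hepatocyte markers Serpina1a in both C57BL/6J libraries, Fga in both knockout libraries and Apoa2 in both wild types. The 8 complement transcripts together summed to 4.27-fold more FPKM in the IL-10 KO library than in C57BL/6J wild type and to 2.82-fold more in the Rag2 KO library than in BALB/c wild type. The macrophage sum was 7.80-fold higher in the IL-10 KO library and 2.26-fold higher in the Rag2 KO library than in the wild type of each strain. Cd14 and Lyz2 held most of that sum in every library. Cd14 had 370 FPKM in the IL-10 KO library and 19.2 in C57BL/6J wild type, and Lyz2 had 455 and 65.2. The median log2 ratio of the 10 macrophage markers was 2.34 for IL-10 and 0.55 for Rag2. Mertk was lower in both knockout libraries than in their wild types, and Cd68 in the Rag2 KO library. The part of the cells behind all these markers in the complement values was not tested.

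Genes elsewhere in the genome with the most similar pattern were found by the same distance. Nearest to Cfb were the chemokine gene Cxcl9 (0.21), Il18bp (0.23), which encodes a protein that binds interleukin 18, and Chi3l3 (0.26). Nearest to C2 were Gbp6 (0.12), Oas2 (0.15) and Mmp3 (0.15), and nearest to C7 were Pla1a (0.28), Lif (0.34) and Mlkl (0.40). For C3 they were Dmbt1 (0.22), Pglyrp1 (0.22) and Cd177 (0.27). Serping1 had the closest match of all, Rassf2 (0.015), and C1ra and C4b were nearest to Arl5c (0.04) and Lilrb3 (0.05). Among the members themselves C4b and C1ra were most alike (0.18) and C3 and C4a least (2.56). Some matches were low in a wild type, where the pseudocount of 1 makes ratios smaller. Lilrb3 had 5.20 FPKM in the IL-10 KO library and 0.544 in C57BL/6J wild type, and Chi3l3 had 15.7 and 0.172. Cd177 had 2.92 FPKM in the Rag2 KO library and 0.04 in BALB/c wild type. A small distance therefore does not mean that ratios of FPKM with nothing added were alike. With 4 libraries such distances describe levels only.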

How the data were processed

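RNA was measured in 4 libraries, 1 per group, each as 1 column of FPKM per gene symbol that the authors deposited. Cuffdiff 2.2.1, TopHat2 2.1.1, SAMtools 0.1.18 and Bowtie2 2.2.8, with build mm10, are listed per the submitters' processing notes. The sources used here do not give the annotation or the strand setting. Per the labels, libraries were stranded mRNA libraries. Members and lists were chosen with earlier results of these data known. Log2 ratios use FPKM plus a pseudocount of 1, which understates ratios of low genes, and genes that reach an FPKM of 1 in one library of the pair. With 1 library per group, no test was run. Depth was estimated from the steps of the lowest FPKM values of 2745 single-transcript genes of at least 1000 nt; intervals are exact binomial (Clopper-Pearson), at 95%, on the estimated fragments, and cover counting error only. Named genes are the members, the complement list by role where an FPKM of 1 was reached and class III neighbours within 150 kb. Named as well are the 3 nearest patterns per member. These were sought among genes with an FPKM of at least 5 and without a provisional name (Gm, Rik, Mir or Sno). The genes that check labels, sex and low values were added after their values were seen. 1 gene of the complement list is counted but not reported here by name or drawn. Older symbols were matched through RefSeq synonyms. Alternatives were other pseudocounts, filters, scalings and the sum of C4a and C4b. The counting was tested on simulated data. Python 3.11.15, pandas 2.3.3 and scipy 1.17.1 were used.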

Additional observations from a re-analysis of the deposited data

How the results depend on the processing

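Counts of members at least 2-fold apart stayed within 1.5 times their values in every knockout alternative run. The number of members whose ratios differed by at least 1 between the knockouts was 2, and 1 with a pseudocount of 5, with a filter at an FPKM of 5 and with C4a and C4b summed, each of which bears on C4a, and 3 after ribosomal centring, which adds C2. The median of the members in the Rag2 comparison, 1.89, was 1.75 after rescaling without small RNA rows, 2.198 after centring on ribosomal protein genes and 2.42 with C4a and C4b summed; between the wild types it was -0.25, and -0.18 and -0.34 under the rescaling and the sum. In the wider list, 3 genes were apart between the wild types and 10 with a pseudocount of 0.1. Added were Cd59a, Cd59b, Masp2, C5ar1, Itgam, Itgax and Itgb2. In the Rag2 comparison 8 were apart, and 3 with a pseudocount of 5, which drops C6, Cd59a, Itgam, Itgax and Itgb2. All of these had 15.2 FPKM or less in the libraries compared, a range in which the size of the pseudocount changes ratios. Rescaling shifted the median of all genes by -0.13 in both knockout comparisons, and ribosomal centring shifted it by 0.30 in the Rag2 one. C4a ranged from 0.66 to 3.31 in the IL-10 comparison, Serping1 reached 1.18 in the Rag2 one and C7 -0.98 between the wild types, which changed their calls. Over all genes, the counts higher and lower with a pseudocount of 0.1 were 1665 and 787 for IL-10, 780 and 532 for Rag2 and 477 and 452 between the wild types; with 5 they were 611 and 182, 278 and 68, and 56 and 104; with 1 they were 1297 and 488, 545 and 251, and 223 and 267. With the filter at an FPKM of 5 they were 846 and 364, 413 and 159, and 129 and 181. No paired analysis was possible because each group has 1 library. Depth limits C4a in C57BL/6J wild type, at about 11 fragments.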

Other observations

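Ratios between members within a library, which need no scaling between libraries, differed as well. The FPKM of C3 was 2.63 times that of Serping1 in the IL-10 KO library and 0.539 times in C57BL/6J wild type, against 0.913 times in the Rag2 KO library and 0.310 times in BALB/c wild type. C3 was 12.8 times Cfb in the IL-10 KO library and 21.1 times in C57BL/6J wild type, against 4.01 times in the Rag2 KO library and 10.2 times in BALB/c wild type. C4b was 16.6 times C2 in the IL-10 KO library and 18.4 times in C57BL/6J wild type, against 9.56 times in the Rag2 KO library and 37.9 times in BALB/c wild type. Serping1 was 4.37 times C1ra in the IL-10 KO library and 7.90 times in C57BL/6J wild type, against 4.91 times in the Rag2 KO library and 6.92 times in BALB/c wild type. The 8 transcripts together held 2.31% of the FPKM sum in the IL-10 KO library and 0.557% in C57BL/6J wild type, against 1.21% in the Rag2 KO library and 0.451% in BALB/c wild type. A GAS match, TTCCCTGAA, occurs in both near-copies of C1r. It lies 119 bases before the annotated start of C1rb and 33 bases after that of C1ra. The C1rb window opens with nearly the same bases that end the printed C1ra window. The match follows those bases at the same distance in both, so the annotated starts differ rather than the place of the match.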
